A study of Mus musculus with 2 samples.

Results

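Ptgds, the gene of lipocalin-type prostaglandin D synthase, and AK030988, a long non-coding RNA (lncRNA) transcribed beside it on chromosome 2, were followed on 2 microarrays of mouse hippocampus. They are 2 of the 60930 different probes on the array outside its controls. Both were chosen because their signal was higher on the surgery array, so their change is given here as a description and no test of it was made. A further lncRNA of the same locus, ENSMUST00000144016, which overlaps the exons of Ptgds on the same strand, was set beside them. The RNA came from male mice of 16 to 18 months, C57 by the labels and C57BL/6 by the study's methods. The surgery group had the left kidney removed under anaesthesia, and the tissue was taken on day 3. The control group had no specific treatment, and no sham operation is described for it. Hippocampal RNA of 3 mice was pooled in each group, and each pool was read on 1 array in the data used here, although the methods speak of a repeat, so the spread between mice or pools is not known.

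Prostaglandin D2 is made in steps. Phospholipases A2 release arachidonic acid from membranes, cyclooxygenases turn it into prostaglandin H2, and a terminal synthase such as Ptgds converts that to prostaglandin D2, which acts on the receptors Ptgdr and Ptgdr2. Ptgds is also a lipocalin, a family of secreted carriers of small lipophilic molecules. It is a major protein of the cerebrospinal fluid, and in the brain it is known to be made by the leptomeninges, the choroid plexus and oligodendrocytes rather than by most neurons. In pooled tissue, more cells of a type and more RNA per cell cannot be told apart.

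Each transcript was read by 1 probe of 60 bases, shown because every value of Ptgds, AK030988 and ENSMUST00000144016 rests on that single sequence. In the Ptgds probe the capitals mark its first ATG, and in the other probes the longest run of bases shared with the Ptgds probe.
Ptgds: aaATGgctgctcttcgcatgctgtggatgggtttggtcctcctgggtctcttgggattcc
AK030988: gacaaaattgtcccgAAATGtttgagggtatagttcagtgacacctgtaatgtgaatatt
ENSMUST00000144016: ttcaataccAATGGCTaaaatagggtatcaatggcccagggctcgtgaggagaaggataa
The ATG of the Ptgds probe starts at base 3 and opens a frame of 19 codons, the ATG included, with 0 stop codons up to the end of the probe. The AK030988 probe shared at most 5 bases in a row with it, and the ENSMUST00000144016 probe at most 7. Among 1169 other probes with a listed sequence, the longest shared run was 12 bases for Ptgds and 11 bases for each of the lncRNAs. The study's annotation listed 0 cross-hybridising targets for these 3 probes, against 124 of 1172 named probes with at least 1. The probes differed in base composition, with a GC content of 55.0% for Ptgds, 45% for ENSMUST00000144016 and 36.7% for AK030988. For that reason, and because probes bind with different strength, changes were compared between probes but the level of a transcript was not.

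All 3 transcripts lie on the minus strand of chromosome 2 in GRCm38. The Ptgds mRNA, NM_008963, spans chr2:25466711-25469749 and is 806 bases long when spliced. ENSMUST00000144016 spans chr2:25466710-25469383, over nearly the same stretch, and is 1327 bases long. AK030988 spans chr2:25462810-25465900, is 3093 bases long and was classed as intergenic. It begins 810 bases beyond the 3′ end of Ptgds and runs in the same direction, and its start lies 3849 bases downstream of the Ptgds start. On its other side, the gene Paxx lies 155 bases away on the same strand. AK030988 overlaps 0 genes of the RefSeq annotation.

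**Figure D1:**
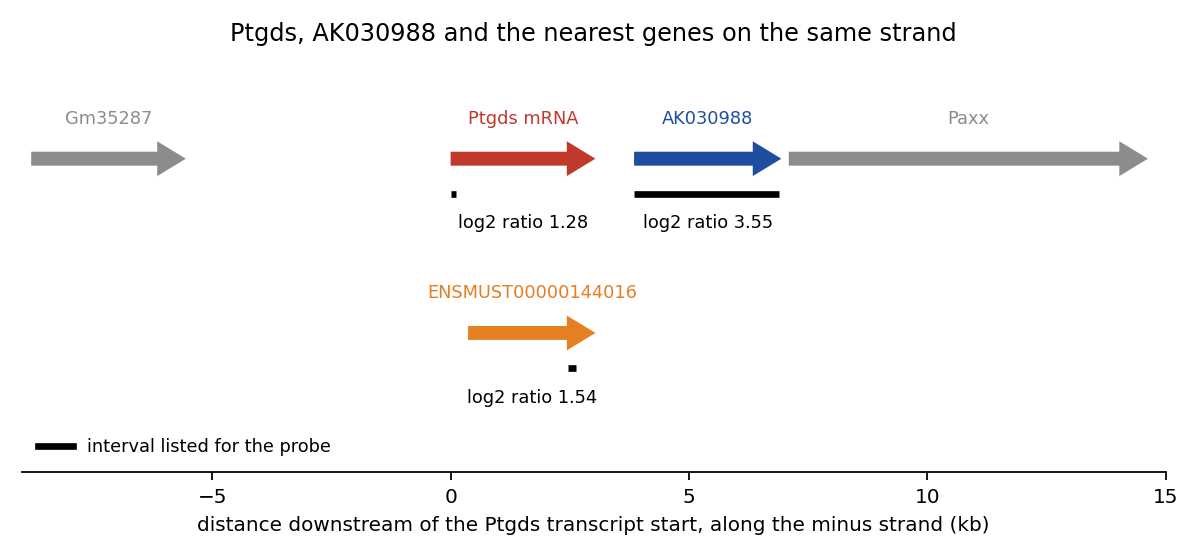
Map of the Ptgds locus drawn to scale, with the distance from the start of the Ptgds mRNA in kb on the x axis and genes of the minus strand as arrows pointing in the direction of transcription. AK030988 (blue) begins 810 bases beyond the end of Ptgds (red), and the black bars give the interval that the annotation lists for each probe, with the log2 ratio measured there.

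The interval listed for the Ptgds probe lies 15 to 120 bases from the 5′ end of the mRNA. That of the ENSMUST00000144016 probe lies near the other end of the gene, 405 bases before the 3′ end of Ptgds. Exon positions of the Ptgds mRNA were not used here, so whether the probe also reads the mRNA was not tested. The interval listed for AK030988 is 3043 bases long and covers nearly the whole transcript, which leaves the place of its 60 bases within it unresolved. Whether the RNA read there is separate from Ptgds RNA that runs on past the annotated end was not tested.

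The Ptgds probe gave a processed signal of 16530.1 ± 1653 for the control pool and 42242 ± 4224 for the surgery pool. The error is the one that the scanner software gives for the spot. It covers the measurement on 1 array and not the mice. The surgery signal was the higher one by 2.56-fold before normalization, and both signals were far from the brightest spots of the arrays, which reached 323325 and 321424. The pixel medians of the spot, before any background correction, were 16898.5 and 43114 against a local background of 22 on each array.

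AK030988 differed more. Its processed signal was 347 ± 34.8 for the control pool and 3738 ± 374 for the surgery pool, a 10.8-fold difference before normalization. The pixel medians were 399 and 3973, against local backgrounds of 24 and 21, so that the control signal stood clear of background as well. ENSMUST00000144016 gave 1241 ± 124 for the control pool and 3399.6 ± 340.0 for the surgery pool, which is 2.74-fold. All 3 probes were well above background on both arrays, and 0 quality marks were raised on their spots.

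**Figure D2:**
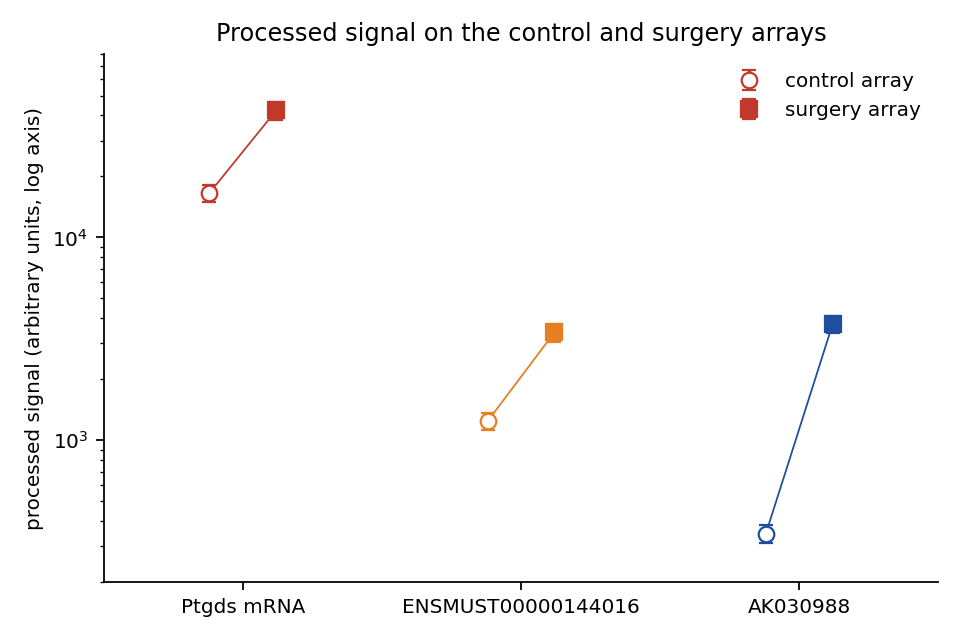
Processed signal of the 3 probes on a log axis, with open circles for the control array and squares for the surgery array and bars for the spot error (1 array each). The surgery signal is the higher one for all 3 probes, with the steepest line for AK030988, from 347 to 3738.

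The arrays were then quantile normalized, which brings their signal distributions to the same shape. The log2 ratio of surgery over control was 1.28 for Ptgds with a spot error of 0.20, which is a fold of 2.42, or 2.10 to 2.79 within 1 error. AK030988 reached a log2 ratio of 3.55 with a spot error of 0.20, a fold of 11.7 with limits of 10.2 and 13.5. For ENSMUST00000144016 the log2 ratio was 1.54 with the same error of 0.20, a fold of 2.92 with limits of 2.53 and 3.36. All 3 probes were past 2-fold. For comparison, 44044 probes on the arrays passed the background criterion on each of them, and 3.42% of these differed by at least 2-fold in either direction. These were 647 higher ones (1.47%) and 858 lower ones (1.95%). Without normalization between the arrays the split was 468 higher and 1483 lower. Since the transcripts were chosen from this same contrast, nothing is read from their standing against these shares.

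AK030988 ranked 5 of 44044 by log2 ratio, with 0.0114% of the probes at least as high. ENSMUST00000144016 ranked 209 and Ptgds 338, with 0.475% and 0.767% of the probes at least as high. Probes of like signal were also counted. In the tenth of the probes with the highest signal, which holds Ptgds, 4 of 4405 probes were at least 2-fold higher. In the tenth that holds AK030988, 32 of 4404 were, and in that of ENSMUST00000144016 17 of 4404.

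**Figure D3:**
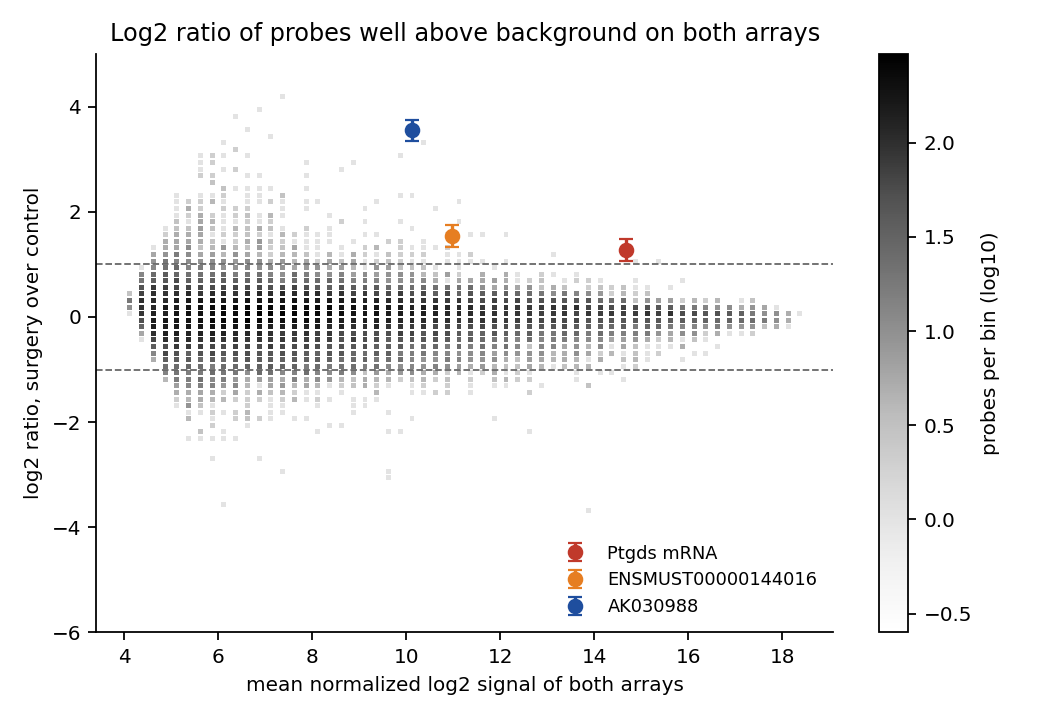
Log2 ratio of surgery over control against the mean normalized log2 signal of both arrays for 44044 probes, in bins shaded by the number of probes, with dashed lines at 2-fold and bars for the spot error. AK030988 stands above the probes of like signal at 3.55, with ENSMUST00000144016 at 1.54 and Ptgds at 1.28, while 1 probe with a log2 ratio of -11.23 lies below the axis.

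Neighbours on the chromosome did not share 1 size of change. The log2 ratio of AK030988 exceeded that of Ptgds by 2.27, with a combined spot error of 0.29, which makes its fold 4.83 times that of Ptgds. The fold of AK030988 was 4.01 times that of ENSMUST00000144016. The probes at the opposite ends of the Ptgds gene differed by 0.27, with a combined spot error of 0.29. The error from the scanner software was 0.20 for each of these log2 ratios and had a median of 0.21 over all 44044 probes. It is therefore nearly the same from probe to probe and is not a scatter measured on these spots. The repeated spots described below scattered less, with a median SD of 0.046. Whether the values of Ptgds and ENSMUST00000144016 differ was not tested. The difference between AK030988 and Ptgds was 2.08 to 2.28 under 9 other ways of processing, which all reuse the same spots and are not separate measurements. Scaling to the 75th percentile shifts all probes of an array alike, so it could not change this difference and gave the same 2.08 as no normalization.

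The place of the spots on the array was examined, because many of the probes past 2-fold lie near one edge. With the last 14 columns of spots left out, 348 probes instead of 647 were at least 2-fold higher. Ptgds lay in column 108, AK030988 in column 144 and ENSMUST00000144016 in column 58, and all 3 lay outside those last columns. Around Ptgds, the 53 spots within 5 rows and 2 columns had a median log2 ratio of -0.16, and their highest was 0.42. Around AK030988 the median of 52 spots was 0.02, with 2 of them at least 2-fold higher and a highest value of 1.36. Around ENSMUST00000144016 the median of 54 spots was 0.05, with 1 spot at least 2-fold higher at 2.04. With the median of the nearby spots subtracted, the log2 ratios were 1.44, 3.53 and 1.50, in the order Ptgds, AK030988 and ENSMUST00000144016. In its whole column, 0.397% of the probes were at least 2-fold higher for Ptgds, 2.19% for AK030988 and 0.376% for ENSMUST00000144016. The share over all 44044 probes was 1.47%, so the column of AK030988 was above it and the other columns below.

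**Figure D4:**
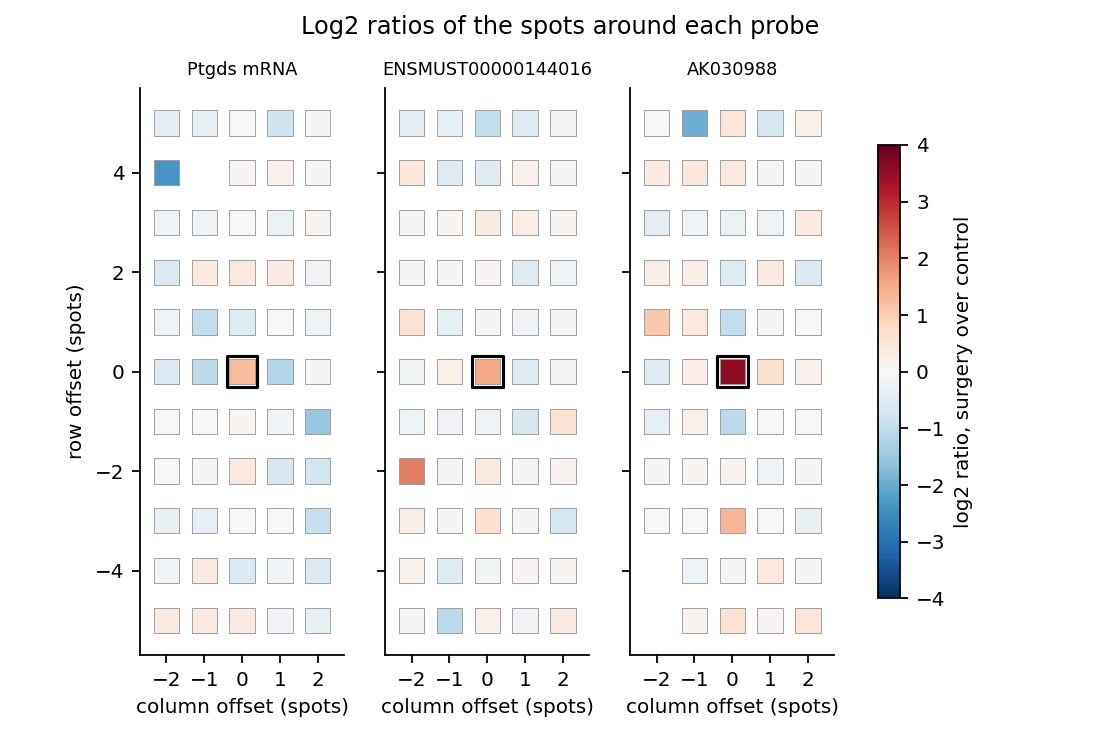
Log2 ratios of the spots within 5 rows and 2 columns of each probe, which is the framed square in the middle, with red for higher on the surgery array. Places that hold no spot outside the controls are blank. The framed AK030988 spot at 3.55 is the reddest of its field, and the spots next to Ptgds are near 0 or below it.

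Repeated spots show how far the signal of 1 probe can scatter over an array. The array carries 30 probes with repeated spots, and 14 of these gave more signal than the AK030988 spot on the control array, a choice made for spot brightness and not for RNA level. Among these 14 probes, among them those of Actb, Gapdh and Hprt, the log2 ratio had a median SD of 0.046 over the spots of a probe, and the highest SD was 0.096. Single spots of these probes ranged from -0.54 to 0.24, below the log2 ratios of Ptgds and of AK030988. This scatter belongs to spots of the same RNA and not to different mice.

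The other genes of the prostaglandin pathway could be followed only where the study's annotation names a probe, and that annotation lists only probes already called changed on these arrays. Its mRNA part is shortened here, so a gene without a name may still have been called changed. Of 38 pathway genes, 6 had a named mRNA probe, Ptgds among them. Of these 6, 4 were at least 2-fold higher in the surgery pool, 1 was at least 2-fold lower and 1 passed the background criterion for the surgery pool alone. Without Ptgds, the median log2 ratio of the other 5 was 1.32, or 0.83 with the pixel medians of the spots, and that of all 44044 probes was 0.04. The way the probes were listed fixes these counts, which say nothing of the pathway as a whole.

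At the head of the pathway, the 9 phospholipases A2 had no named mRNA probe. A probe for an lncRNA at the Pla2g5 locus, ENSMUST00000140117, gave 3.91 for the control pool, too dim to pass the background criterion, and 68.8 for the surgery pool, at least 4.59-fold higher by the processed signal. With the pixel medians its log2 ratio was 1.27. A probe for an lncRNA at the Pla2g2a locus, ENSMUST00000077582, read 581 for the control pool and 13.3 for the surgery pool, but the spot was marked as an outlier. Neither cyclooxygenase, Ptgs1 or Ptgs2, was named, nor was Hpgds, the other prostaglandin D synthase.

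Among the other terminal synthases, Ptgis, which makes prostacyclin, gave 379.5 for the control pool and 757 for the surgery pool. Its log2 ratio was 1.16 with an error of 0.20, and 0.99 when the pixel medians were used. Abcc4, an exporter of prostaglandins, was at 3.63 for the control pool, below the background criterion, and at 33.8 for the surgery pool, at least 2.23-fold higher by the processed signal. With the pixel medians the log2 ratio of Abcc4 was 0.83, short of 2-fold. Ptgr2, a reductase in the breakdown of prostaglandins, was the only lower one, with 147 for the control pool and 62.1 for the surgery pool. Its log2 ratio of -1.09 became -0.71 with the pixel medians, short of 2-fold.

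The receptor of prostaglandin D2, Ptgdr, was higher on the same array as the synthase. Its signal was 332 for the control pool and 1056 for the surgery pool, with a log2 ratio of 1.82, an error of 0.20 and a fold of 3.53. With the pixel medians the log2 ratio was 1.73. Ptgfr, the receptor of prostaglandin F2alpha, gave 83.9 and 189, a log2 ratio of 1.32 that was 0.82 with the pixel medians. The other receptor of prostaglandin D2, Ptgdr2, and the receptors of prostaglandin E2, prostacyclin and thromboxane had no named probe.

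Of 36 further lipocalin genes, 3 had a named mRNA probe. Lcn2, which binds bacterial siderophores and is known as an acute-phase protein, gave 167 for the control pool and 1201 for the surgery pool. Its log2 ratio was 2.99 with an error of 0.21, and 2.74 with the pixel medians. Mup16 and Mup19, major urinary proteins, passed the background criterion for the surgery pool alone, at least 4.13-fold and 3.28-fold higher by the processed signal. A probe for an lncRNA at the Mup1 locus did so too, at least 2.86-fold higher. With the pixel medians the log2 ratios of Mup16, Mup19 and the Mup1 probe were 1.16, 0.78 and 0.64. The major urinary protein genes are near-identical copies, so which of them a probe reads is uncertain. The 3 lipocalin probes had a median log2 ratio of 2.99 with the processed signal and of 1.16 with the pixel medians. As with the pathway, the way the probes were listed fixes this median, which says nothing of the lipocalins as a whole.

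**Figure D5:**
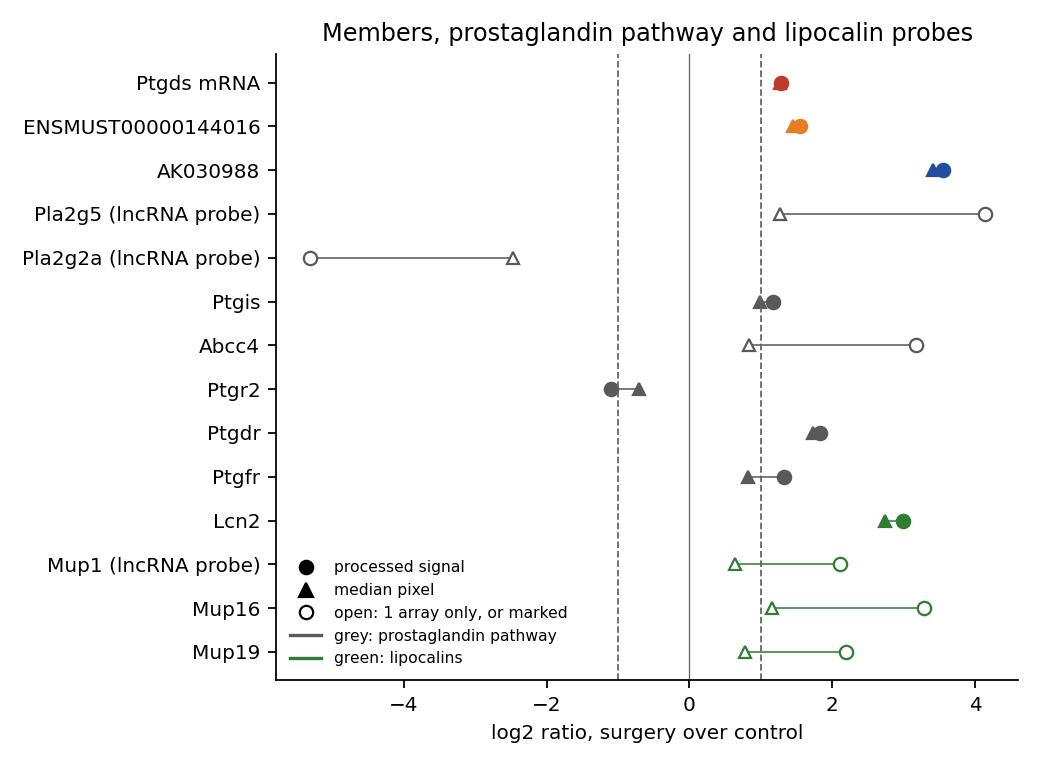
Log2 ratios of the 3 probes of the Ptgds locus and of the named probes of the prostaglandin pathway (grey) and the lipocalins (green), with circles for the processed signal and triangles for the pixel medians, open where a probe was above background on 1 array only or marked. Both readings nearly coincide for Ptgds, AK030988, Ptgdr and Lcn2 and lie far apart for the dim probes.

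Ptgds stands in a row of lipocalin genes, with 11 of the 36 within 500 kb of it, namely Lcn12, C8g, Lcn8, Lcn5, Lcn6, Lcn10, Obp2a, Obp2b, Lcn3, Lcn11 and Lcn9. None of these 11 had a named probe. The 4 transcripts within 500 kb that did have one were not lipocalins, and the spots of all 4 lay in the last 14 columns of the array. Lrrc26, a subunit of a potassium channel, gave 209.7 for the control pool and 691 for the surgery pool, with a log2 ratio of 1.87. Fbxw5, an F-box protein, passed the background criterion for the surgery pool alone, at least 6.69-fold higher by the processed signal. With the pixel medians the log2 ratio of Fbxw5 was 1.25. The lncRNA uc008isu.1 at the Rabl6 locus read 20.5 and 119, a log2 ratio of 2.66 that was 1.05 with the pixel medians. The antisense transcript ENSMUST00000151069 at A230005M16Rik read 139 and 58.3, a log2 ratio of -1.11 that was -0.88 with the pixel medians, short of 2-fold.

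Markers of the cell types that make Ptgds were set beside these values. Of 32 markers of the leptomeninges and arachnoid, 19 had a named mRNA probe. Of these, 17 were at least 2-fold higher in the surgery pool, Wnt6 was above background there alone and Tfap2a had a marked spot. As with the pathway, a probe is named only where it had been called changed on these arrays, so these counts and medians were fixed by the listing and say nothing of the markers as a whole. The mRNA names are also shortened here, so a marker without a name may still have been called changed, in either direction. Over all 19 the median log2 ratio was 2.18, with a range of 1.01 to 3.29, and with the pixel medians it was 1.18, against 0.04 and 0.02 for all probes. Over the 17 without Wnt6 and Tfap2a it was 1.83, and 1.18 with the pixel medians. The summed signal of the 19 was 43574 for the control pool and 103211 for the surgery pool, of which Mgp alone gave 29420.4 and 63582. All 19 log2 ratios were above 0, among probes named only because they had been called changed. Slc47a1, an organic cation transporter, gave 439 and 3977, and Cdh1, the cadherin of the arachnoid barrier, 352 and 2706. Foxc1, a forkhead factor of the meninges, gave 3007 and 5979. The remaining 13 markers had no named probe, and 6 of the 19 spots lay in the last 14 columns. These named markers were higher on the same array as Ptgds, and their part in its change was not tested.

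Of 15 choroid plexus markers, Clic6 alone had a named mRNA probe, with 1063 for the control pool and 368 for the surgery pool, a log2 ratio of -1.38. A probe for an lncRNA at the locus of Prlr, another of the 15, read 65.9 and 272, a log2 ratio of 2.20. Its spot lay in the last 14 columns, and the log2 ratio was 1.58 with the pixel medians and 1.53 with the median of nearby spots subtracted. Of 14 oligodendrocyte markers, Tspan2 read 306 and 138, a log2 ratio of -0.99. The astrocyte marker Gpm6b, of 9, read 22497 and 9734, a log2 ratio of -1.25. Clic6, Tspan2 and Gpm6b therefore had the opposite sign to Ptgds, and the part of these cell types in the result was not tested. Of 12 hippocampal neuron markers, Camk2a read 48.5 and 111, a log2 ratio of 1.35 that was 0.70 with the pixel medians, short of 2-fold. The Tbr1 mRNA probe passed the background criterion for the control pool alone, at 28.9 and 4.01, and a probe for the lncRNA ENSMUST00000136867 at the Tbr1 locus for the surgery pool alone, at 3.40 and 23.0. The spot of ENSMUST00000136867 lay in the last 14 columns. The labelled tissue could therefore be checked against only a few of its markers. Of 9 blood cell markers only Cd177 was named, at 22.3 and 4.30, above background on the control array alone. S100a8, another of the 9, had no named probe here, although the paper lists it among its most down-regulated mRNAs.

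With 2 arrays, likeness to Ptgds or AK030988 comes down to a near-equal log2 ratio, and 854 other named probes that passed the background criterion on each array were ranked by it. Nearest to Ptgds was the mRNA of Rnf182, a ubiquitin ligase, at 1.28. It was followed by the lncRNAs ENSMUST00000177412, ENSMUST00000128574, ENSMUST00000130985 and AK005751, all at 1.27 or 1.28, and 3 of these lay in the last 14 columns. With the pixel medians, Ptgds was at 1.27 and Rnf182 at 1.11, while the lncRNAs were at 0.94, 0.88, 1.05 and 0.59 in that order. With the median of nearby spots subtracted, Ptgds was at 1.44, Rnf182 at 1.01 and the lncRNAs at 0.24, 0.67, 1.18 and 0.78. Nearest to AK030988 were the lncRNAs ENSMUST00000156345 at 3.57 and AK149831 at 3.47, the mRNA of Areg, a ligand of the epidermal growth factor receptor, at 3.36, the lncRNA ENSMUST00000126434 at 3.76 and Slc47a1 at 3.29. Of these 5, Slc47a1 and ENSMUST00000156345 lay outside the last 14 columns. With the pixel medians, AK030988 kept a log2 ratio of 3.41 and Slc47a1 one of 3.13, while ENSMUST00000156345 was at 2.26 and Areg at 1.85. Among the named probes measured on both arrays, AK030988 ranked 5 of 501 lncRNAs and Ptgds 107 of 356 mRNAs by log2 ratio. The named probes are only those already called changed on these arrays, in either direction, and the mRNA part is shortened. These ranks therefore say nothing of the standing among all lncRNAs or mRNAs of the array.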

How the data were processed

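One-colour Arraystar mouse lncRNA arrays, 1 per group, were labelled by random priming along the whole transcript and read with Agilent Feature Extraction 11.0.1.1, per the submitters' processing notes. The deposited intensities are processed signals, which the software had background-subtracted and detrended array by array, with an error per spot, and they are not normalized between arrays. Pixel median intensities and the local background were also deposited. The authors' value table holds log2 values that they quantile normalized with GeneSpring GX. Its columns had medians of 4.78 and 4.78 and correlated with the values computed here at 0.998 and 0.998 over 43966 probes, so that scale and direction are known, and its centring, which differs from the scanner values, is not stated in the sources used here.

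Here, the log2 processed signals of 61500 spots per array outside the controls were quantile normalized, repeated spots were averaged, and spots marked non-uniform or as population outliers were left out, which removed 50 probes. Well above background were 76.4% of the control array's spots and 73.8% of the surgery array's, with median signals of 98.8 and 89.7. Counts at 2-fold were made over the 44044 probes that passed the positive-and-significant and the well-above-background criteria on each array. With 1 array per group no test was run, and precision is limited by that number. The error of a log2 ratio joins the spot errors of its 2 signals, with no share for the mice. Both arrays lay on 1 slide. For a probe above background on 1 array only, the bound divides the brighter normalized signal by the dimmer signal or the lowest signal well above background there (15.7 for control and 18.9 for surgery), whichever is higher. The bound holds for the processed signal only and carries no spot error.

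Probe names, classes, positions and sequences came from the study's annotation table of 726 lncRNA and 446 mRNA probes, whose mRNA part is shortened here, so no overlap was computed from it. Its columns of fold changes and normalized values were not used. Other gene positions are from RefSeq on GRCm38.p6. Named are all probes of the Ptgds locus, of the pathway, lipocalin and cell type lists, of transcripts within 500 kb, and the 5 nearest log2 ratios for Ptgds and for AK030988. The value of a gene in the marker lists is not reported here. These genes, lists and rules were chosen with earlier results of these data known. Alternatives covered the normalization, the probes it used, the background correction, the pixel summary, the array position, the authors' table, the dim-probe filter and the marked spots. The calculation was tested on simulated data. Python 3.11.15, numpy 2.4.6, pandas 2.3.3, matplotlib 3.10.9, R 4.3.3 and limma 3.58.1 were used.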

Additional observations from a re-analysis of the deposited data

How the results depend on the processing

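Each of the log2 ratios was recomputed under 9 other settings and stayed above 0 in all of them. The probes were taken from those already called changed on these arrays, and all settings reuse the same spots. This sign is therefore no test of the change, and only the size of the shifts between settings is described. AK030988 ranged from 3.36 to 3.60, ENSMUST00000144016 from 1.44 to 1.62 and the difference of AK030988 and Ptgds from 2.08 to 2.28. All of these moved by less than the spot error, which is the one given by the scanner software and not a scatter measured on these spots. Ptgds ranged from 1.27 to 1.52 and moved by more than its spot error under 2 settings, to 1.52 with scaling to the 75th percentile and to 1.50 in the authors' table, and the cause was not tested. The count of probes at least 2-fold higher, 647, became 348 without the last 14 columns (fewer probes counted), 210 with the pixel medians, 176 with normexp and 2384 with dim probes kept (more probes counted). The count at least 2-fold lower, 858, became 1483 without normalization between arrays, 243 with the pixel medians, 191 with normexp and 2748 with dim probes kept. Normexp with an offset of 50 was run on the pixel median, which was chosen after seeing the data, and the planned run on the pixel mean was not run. The median log2 ratio of all probes was 0.04, -0.07 without normalization and 0.10 with scaling to the 75th percentile. No paired analysis was possible because each group has 1 array and the results come from no test. The number of arrays, and for dim probes the signal over background, limit every value.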
